A study of Mus musculus with 16 samples.

Results

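The potassium channel genes described here are all genes of the total RNA table whose symbol is Kcn followed by letters and a number, matched by Ensembl gene ID. The rule finds 92 genes among 39043 features, and they fall into 15 subfamilies of pore-forming and accessory subunits. No measured level entered the choice. Total RNA was sequenced in 8 mouse libraries of 3 groups: 3 libraries of CSCs, which are c-kit-sorted cardiac stem/progenitor cells grown as a clone, 3 of iCMs, which are the cells obtained when cardiospheres of such CSCs are differentiated, and 2 of aCMs, which are adult cardiomyocytes. The study asked how close the iCM transcriptome comes to that of the aCM.

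All groups carry the wild-type C57BL/6J genotype. CSCs were depleted of CD45+ and CD31+ cells, enriched for c-kit from hearts of 12-week-old mice and cultured in growth medium. iCMs were treated with BMP-4, Activin A, β-FGF, Wnt11 and Wnt5a and then with DKK-1, up to day 14. aCMs were not cultured. They came from collagenase-digested hearts, whose age is given as 10 weeks in the results and 12 weeks in the methods of the study. CSCs and iCMs are described as replicates of a single clone, whose spread would not be that among clones or animals. The methods of the study describe aCM samples as pools of cells from 2 hearts.

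Potassium channels let potassium leave the cell and so end the action potential and hold the resting potential. In the mouse ventricle the transient outward current, carried by Kv4 pores with the KChIP2 subunit, and slower Kv currents repolarize the cell early. The inward rectifier sets the resting potential, and acetylcholine-gated and ATP-sensitive inward rectifiers couple it to vagal tone and to metabolism. KCNE, KChIP and Kvβ subunits do not form pores but alter the pore they bind.

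The libraries hold 52.71, 63.24 and 29.87 M counts in CSCs, 31.16, 24.17 and 13.42 M in iCMs, and 11.11 and 14.59 M in aCMs. Labels were not matched by all of their markers. Kit, the gene of the c-kit receptor used for sorting, was at 0.0836, 0.0303 and 0 CPM in CSCs and at 39.5, 45 and 43.9 CPM in iCMs, where CPM, counts per 1 M counts, are corrected for library size by TMM. Kit is 1 of 4 genes listed as CSC markers. Nt5e was also low in CSCs, at 0.184 CPM or less, and at 8.71 to 12.9 CPM in iCMs. The other listed genes were expressed in every CSC library. Ly6a was at 197, 511 and 283 CPM in CSCs, 374, 244 and 335 in iCMs and 126 and 152 in aCMs. Abcg2 was at 50.7, 50 and 48.8 CPM in CSCs, 77.7, 86.6 and 69.6 in iCMs and 37.8 and 43.3 in aCMs. The Y-linked gene Eif2s3y was at 0.175 CPM or less in CSCs, between 29.6 and 33.6 CPM in iCMs, and at 0.263 and 84.8 CPM in aCMs. The X-linked RNA Xist was at 601, 634 and 562 CPM in CSCs, 197, 210 and 187 in iCMs and 125 and 68.8 in aCMs. Each iCM library and aCM library 2 thus held RNA of both genes. The libraries labelled CSCs and iCMs therefore differ in a Y-linked gene although they are described as 1 clone, and each difference between them below is between the libraries so labelled. Markers of other cell types also moved with the groups. The summed level of 5 endothelial markers was 1.89 to 3.04 CPM in CSCs, 1036 to 1243 in iCMs and 870 to 1167 in aCMs, and that of 4 erythroid markers was 0.470 to 2.43, 5753 to 24162 and 14.8 to 34.0 CPM. The 6 cardiomyocyte markers summed to 49.7 to 118 CPM in CSCs, 13126 to 20518 in iCMs and 148750 to 178510 in aCMs. In these bulk libraries a larger share of cells of one type and more RNA per cell cannot be told apart.

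The summed level of the potassium channel genes was lowest in the CSC libraries and highest in the aCM libraries. It was 263, 125.0 and 181 CPM in CSCs, 436, 395 and 383 CPM in iCMs, and 2628 and 2556 CPM in aCMs, so that the groups did not overlap. These sums are not shares of the counts. The TMM factors were 1.04 to 1.15 in CSCs, 1.12 to 1.19 in iCMs and 0.685 and 0.716 in aCMs, which raises the aCM values against the others. Single genes weighed heavily, with Kcnip3 at 47.6% of the sum in CSC library 1 and Kcnk3 at 21.4% and 25.1% in aCMs. Of the 92 genes, 14 reached 0.5 CPM in every CSC library, 44 in every iCM library and 44 in every aCM library. A total of 40 reached it in no group. The number detected was thus the same in iCMs and aCMs, whereas the summed level differed and the genes were partly others. Of the detected genes, 12 were detected in all 3 groups, 24 in iCMs and aCMs only and 2 in CSCs and iCMs only. A further 8 were detected in aCMs only and 6 in iCMs only. The share of all features at this level was not computed, so these counts are not set against it.

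**Figure D1:**
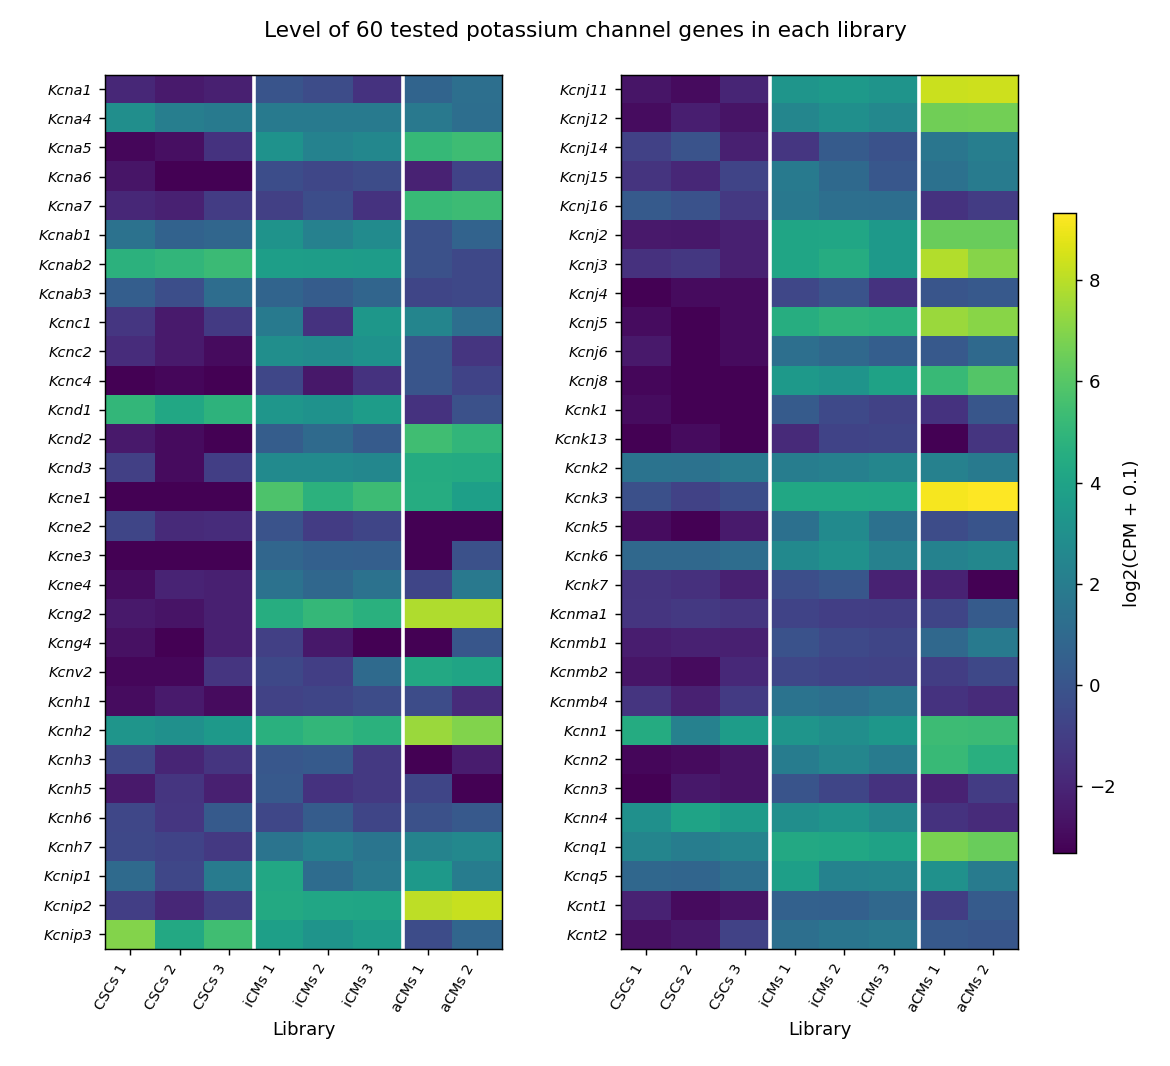
Level of 60 of the 64 tested potassium channel genes in the 8 libraries, as log2(CPM + 0.1), 1 row per gene ordered by subfamily and 1 column per library, with white lines between CSCs, iCMs and aCMs. Colours are meant to be read along a row, since gene length is not corrected for. Genes such as Kcnj11, Kcnk3 and Kcnip2 step up from CSCs to iCMs to aCMs, and Kcnip3, Kcnd1 and Kcnab2 step down.

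A gene was called when edgeR's quasi-likelihood test gave a Benjamini-Hochberg adjusted p below 0.05 over all 20254 tested features and the change was at least 2.5-fold. Of the 92 genes, 64 passed the filter on low counts. Between iCMs and CSCs, 44 of the 64 were called higher in iCMs, against 22% of all tested features, and 3 were called lower, against 7.16%. Between iCMs and aCMs, 11 were called higher in iCMs, against 19.6%, and 24 were called lower, against 15.3%. Between aCMs and CSCs, 44 were called higher in aCMs, against 24.2%, and 5 were called lower, against 20.4%. The median log2 fold change of the 64 genes was 3.03, -0.14 and 3.53 in these comparisons, beside -0.02, 0.19 and -0.10 over all tested features. Many of the 64 passed the filter only because they are high in iCMs or aCMs, so these counts describe the tested genes and not all 92. Each of the 3 comparisons shares its libraries with the other 2. When library totals alone scaled the data, the median over all features moved by 0.71 for iCMs against aCMs and by -0.66 for aCMs against CSCs, and 15 of the tested genes were higher and 21 lower in iCMs than in aCMs, so that 41.7% of the called genes were higher instead of 31.4%. Among the 14 genes detected in every CSC library, 5 were higher in iCMs than in CSCs, 3 were lower and 6 were not called.

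**Figure D2:**
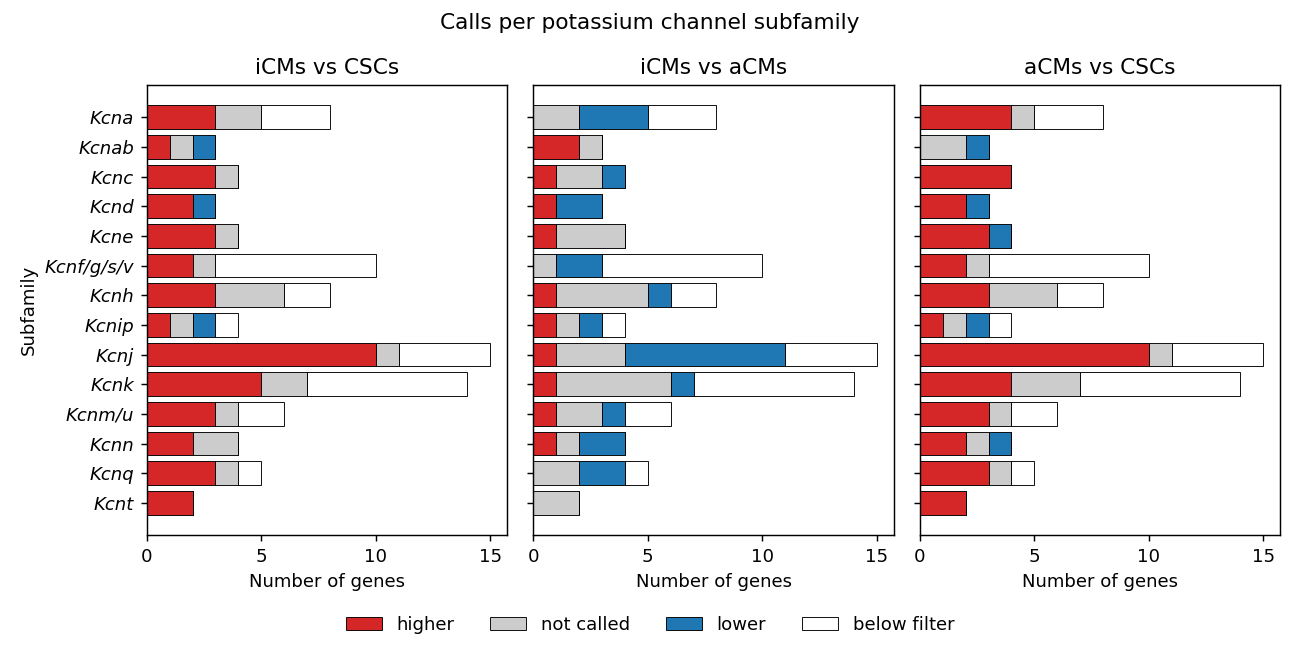
Number of genes per subfamily called higher (red), lower (blue) or not called (grey), or below the filter on low counts (white), in the first-named group of each comparison, with 1 subfamily not shown. In Kcnj 10 of 11 tested genes were higher in iCMs than in CSCs, against 22% of all tested features. In the same subfamily 7 were lower in iCMs than in aCMs, against 15.3%, whereas in Kcnab 2 of 3 were higher in iCMs than in aCMs, against 19.6%.

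The regions around the start sites of 5 genes, and of their partner Abcc9, are printed because these genes cover patterns described below. Kcnip2, Kcnd2, Kcnj2 and Kcnj8 were higher in the iCM and aCM libraries than in the CSC libraries. Abcc9 lies beside Kcnj8, and Kcnn4 is nearly lost in aCMs. Each is a RefSeq promoter window on GRCm38.p6 of 250 bases before and 50 bases from a transcript start, read 5′ to 3′ on the gene's strand. Capitals mark the motifs found, each searched on both strands, so that a motif on the other strand appears as its reverse complement. A GC box was taken as GGGCGG. The TATA box known from many tissue-specific promoters was taken as TATAAA. A core of the sites of GATA transcription factors was taken as AGATAA, and for the muscle factor MEF2 as TAAAAATA. Kcnip2 lies at chr19:45816014-45816313, minus strand, Kcnd2 at chr6:21215096-21215395, plus strand, Kcnj2 at chr11:111065914-111066213, plus strand, Kcnj8 at chr6:142571565-142571864, minus strand, Abcc9 at chr6:142702225-142702524, minus strand, and Kcnn4 at chr7:24370013-24370312, plus strand. The windows of Kcnip2, Abcc9 and Kcnn4 start at a transcript that is not the outermost one of the gene.
Kcnip2: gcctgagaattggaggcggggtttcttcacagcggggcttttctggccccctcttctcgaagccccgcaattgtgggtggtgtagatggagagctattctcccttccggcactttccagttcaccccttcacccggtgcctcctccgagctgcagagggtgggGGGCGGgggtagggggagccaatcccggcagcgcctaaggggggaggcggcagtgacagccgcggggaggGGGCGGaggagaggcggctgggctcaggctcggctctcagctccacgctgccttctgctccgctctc
Kcnd2: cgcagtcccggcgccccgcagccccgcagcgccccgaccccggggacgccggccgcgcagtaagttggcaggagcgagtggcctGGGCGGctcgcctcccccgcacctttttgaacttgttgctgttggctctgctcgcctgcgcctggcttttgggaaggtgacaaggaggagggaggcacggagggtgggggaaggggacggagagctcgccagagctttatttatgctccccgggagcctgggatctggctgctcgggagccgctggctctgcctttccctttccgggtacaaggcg
Kcnj2: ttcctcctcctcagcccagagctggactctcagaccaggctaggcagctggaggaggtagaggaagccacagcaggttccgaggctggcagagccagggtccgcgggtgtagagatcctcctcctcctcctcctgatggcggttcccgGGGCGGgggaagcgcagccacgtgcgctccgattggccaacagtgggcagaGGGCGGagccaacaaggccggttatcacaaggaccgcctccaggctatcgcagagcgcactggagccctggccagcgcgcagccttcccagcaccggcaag
Kcnj8: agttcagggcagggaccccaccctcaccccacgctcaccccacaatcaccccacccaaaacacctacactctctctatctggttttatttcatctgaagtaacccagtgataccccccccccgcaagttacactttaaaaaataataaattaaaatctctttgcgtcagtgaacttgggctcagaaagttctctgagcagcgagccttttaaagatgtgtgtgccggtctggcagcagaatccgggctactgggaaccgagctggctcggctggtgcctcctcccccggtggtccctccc
Abcc9: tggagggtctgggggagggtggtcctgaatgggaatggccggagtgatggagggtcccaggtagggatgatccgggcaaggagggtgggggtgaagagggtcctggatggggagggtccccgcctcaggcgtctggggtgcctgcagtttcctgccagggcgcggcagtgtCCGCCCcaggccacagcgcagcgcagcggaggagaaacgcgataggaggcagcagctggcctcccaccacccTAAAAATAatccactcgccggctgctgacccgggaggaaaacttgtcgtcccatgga
Kcnn4: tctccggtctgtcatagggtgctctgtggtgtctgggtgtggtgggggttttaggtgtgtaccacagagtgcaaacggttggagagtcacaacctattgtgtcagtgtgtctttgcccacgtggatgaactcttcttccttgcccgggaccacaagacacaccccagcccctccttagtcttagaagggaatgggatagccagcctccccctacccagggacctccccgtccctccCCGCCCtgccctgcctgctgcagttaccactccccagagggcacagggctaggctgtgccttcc

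Kcnip2 holds 2 GC boxes, which begin at -87 and -17 from the start, Kcnj2 holds 2, at -102 and -51, and Kcnd2 holds 1, at -166. Kcnn4, which was lower in aCMs than in CSCs and iCMs, also holds 1, on the other strand, at -14. Kcnj8 holds none of the 4 motifs. Abcc9 holds a MEF2 core at -7 and a GC box on the other strand at -79. Windows were found for 67 of the 92 genes, 92 windows in all, since a gene can have several starts. A GC box was present in 47.8% of them and in 35.7% of all 32851 windows of the table, and a TATA box in 5.43% and 13.6%. A GATA core was present in 4.35% and 11.2%, and a MEF2 core in 1.09% and 2.72%. A match says only that these letters are in the window.

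The genes of the transient outward current rose in iCMs and were again higher in aCMs, except Kcna4. Kcnip2, which encodes the KChIP2 subunit that Kv4 channels need in the mouse ventricle, was at 0.401, 0.167 and 0.409 CPM in CSCs, 20.5, 17.8 and 17.4 CPM in iCMs and 265 and 308 CPM in aCMs. Its log2 fold change was 5.87 ± 0.31 (adjusted p = 3.1e-07) for iCMs over CSCs and -3.95 ± 0.27 (adjusted p = 5.0e-06) for iCMs over aCMs. Here and below ± gives an approximate standard error, the absolute log2 fold change divided by the square root of the test's F statistic. The 3 groups of Kcnip2 were far apart, and its iCM libraries lay close together. Kcnd2, a pore subunit of the fast transient outward current, was at 0.0836, 0.0303 and 0 CPM in CSCs, 1.24, 1.99 and 1.13 in iCMs and 43.9 and 31.7 in aCMs, a difference of -4.69 ± 0.47 (adjusted p = 3.8e-05) on the log2 scale between iCMs and aCMs. Kcnd3, the other pore subunit, was at 0.418, 0.0303 and 0.409 CPM in CSCs, 6.62, 6.63 and 5.65 in iCMs and 21.9 and 21.2 in aCMs. All 3 groups of Kcnd3 stood apart, but its call between iCMs and aCMs, at a log2 fold change of -1.77 ± 0.59 (adjusted p = 0.032), was lost when any 1 iCM or aCM library was left out and with scaling to library totals. Kcna4, a pore subunit of the slow transient outward current, was detected in all groups and called in none, at 7.42, 4.13 and 3.51 CPM in CSCs, 3.5, 3.46 and 3.52 in iCMs and 3.41 and 2.3 in aCMs.

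Kcnip3 and Kcnd1, which belong to the same subfamilies, moved the other way. Kcnip3 encodes a calcium sensor that binds Kv4 channels and is also known as a transcriptional repressor. It was at 125, 20 and 42.9 CPM in CSCs, 14, 9.39 and 12.8 in iCMs and 0.657 and 1.72 in aCMs. Its CSC libraries spread widely but all lay above every iCM library, and the iCM libraries all lay above the aCM libraries. The fall from CSCs to iCMs was -2.38 ± 0.58 (adjusted p = 0.0071) on the log2 scale and that from CSCs to aCMs was -5.66 ± 0.87 (adjusted p = 3.1e-04). Without CSC library 1, the highest, these were -1.38 and -4.65, and the latter was -6.62 without aCM library 2. The call between iCMs and aCMs, at a log2 fold change of 3.28 ± 0.81 (adjusted p = 0.008), was lost without aCM library 1, and the value was 4.22 without aCM library 2. Kcnd1, the third Kv4 pore gene, was at 33.2, 19.2 and 28.5 CPM in CSCs, 10, 8.61 and 12.8 in iCMs and 0.263 and 0.766 in aCMs, and its fall in iCMs was -1.37 ± 0.31 (adjusted p = 0.0047). This last change lies close to the 2.5-fold threshold and was not called in a fit of only the groups compared, with a stricter filter, with the replicate block or without CSC library 1 or iCM library 1 or 2. Kcnip1 was at 1.94, 0.545 and 3.71 CPM in CSCs, 19, 2.1 and 3.39 in iCMs and 11 and 3.93 in aCMs and was not called. Its span holds the whole span of Kcnmb1, 10.69 kb on chromosome 11, so reads of these genes cannot be told apart where they overlap.

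The Kv1 genes Kcna1, Kcna5 and Kcna7 were each called higher in aCMs than in iCMs. Kcna5, a main carrier of the ultra-rapid current in the mouse ventricle, was at 0.0167, 0.0454 and 0.263 CPM in CSCs, 8.67, 4.78 and 5.65 in iCMs and 35.3 and 42.3 in aCMs. The iCM libraries lay well above those of CSCs, with a log2 fold change of 6.11 ± 0.66 (adjusted p = 5.5e-05), which was 7.49 without CSC library 3, and well below those of aCMs, at -2.6 ± 0.53 (adjusted p = 0.0029). Kcna7, a Kv1 gene known from skeletal muscle and heart, was at 0.167, 0.121 and 0.38 CPM in CSCs, 0.431, 0.699 and 0.266 in iCMs and 36.9 and 40 in aCMs. CSCs and iCMs overlapped in Kcna7. The rise of iCMs over CSCs, 1.19 ± 0.48 (adjusted p = 0.065) on the log2 scale, was not called, and was called without CSC library 3, at 1.72, or without iCM library 3, at 1.44. The log2 fold change against aCMs was -6.31 ± 0.50 (adjusted p = 9.6e-06). The 5 skeletal muscle markers summed to 5987 and 6132 CPM in the aCM libraries, mostly Ckm and Acta1, which the heart also expresses. The skeletal myosin genes Myh1, Myh2 and Myh4 were all lower in aCM library 2, with Myh1 at 93.9 and 1.72 CPM, while Kcna7 was nearly equal in both. Their part in the level of Kcna7 was not tested. Kcna1 was at 0.167, 0.0909 and 0.117 CPM in CSCs, 0.862, 0.663 and 0.266 in iCMs and 1.58 and 2.39 in aCMs, and its call against aCMs was lost with library totals as the scale, with no filter, with the replicate block and without iCM library 2 or 3 or either aCM library.

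The electrically silent Kv subunits, which form no channel alone but join other Kv pores, include Kcng2 and Kcnv2, both higher in iCMs than in CSCs and higher still in aCMs. Kcng2, on chromosome 18, was at 0.0836, 0.0606 and 0.117 CPM in CSCs, 23.1, 34.1 and 26.1 in iCMs and 223 and 226 in aCMs. The log2 fold changes were 8.33 ± 0.30 (adjusted p = 4.5e-08) for iCMs over CSCs and -3.02 ± 0.22 (adjusted p = 6.1e-06) for iCMs over aCMs. Kcnv2 was at 0.0167, 0.0151 and 0.292 CPM in CSCs, 0.565, 0.405 and 1.99 in iCMs and 19.7 and 16.5 in aCMs, and iCM library 3 stood above the other iCM libraries. Without that library the rise of Kcnv2 over CSCs was 2.47 on the log2 scale and no longer called. Kcng4 was called in no comparison, and the other 7 genes of this kind did not pass the filter.

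**Figure D3:**
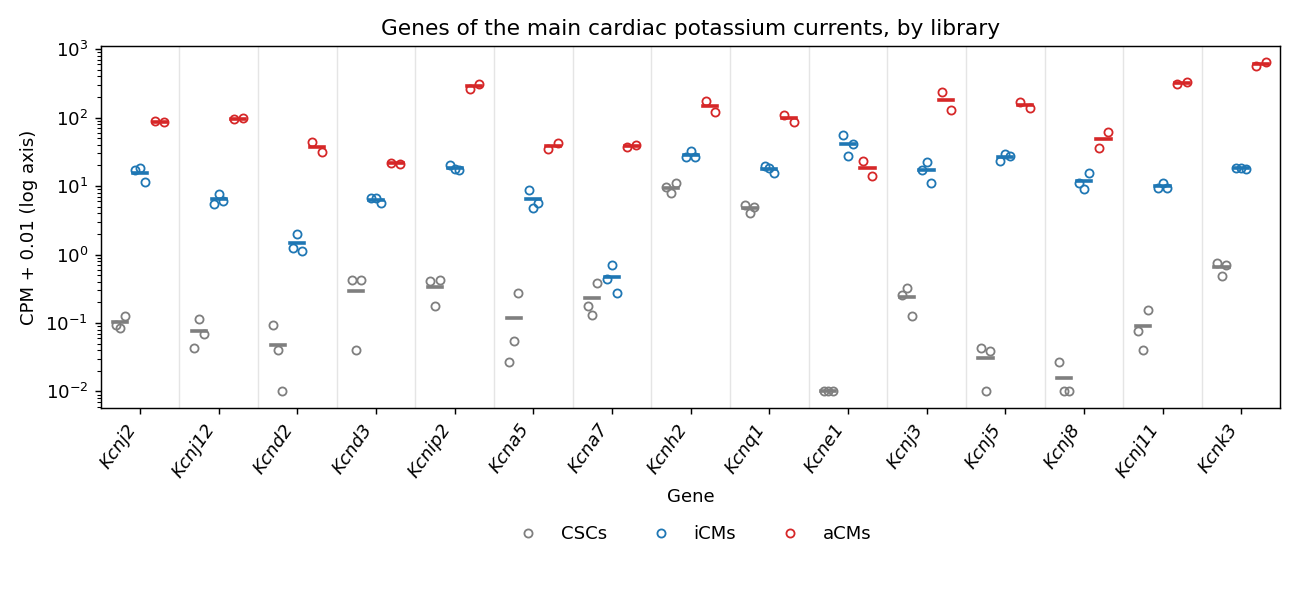
Level of 15 genes of the main cardiac potassium currents in each library, as CPM + 0.01 on a log axis, with circles for single libraries and bars for the mean of CSCs (grey, n = 3), iCMs (blue, n = 3) and aCMs (red, n = 2). iCM libraries lie between CSC and aCM libraries for most genes, CSCs and iCMs overlap in Kcna7, and Kcne1 is the plotted gene whose iCM libraries all lie above both aCM libraries.

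Both pore genes of the delayed rectifiers were already detected in CSCs and rose from there. Kcnh2, the pore of the rapid delayed rectifier IKr, was at 9.58, 7.97 and 10.9 CPM in CSCs, 26.2, 32.8 and 27 in iCMs and 173 and 122 in aCMs. Its log2 fold changes were 1.6 ± 0.21 (adjusted p = 1.9e-04) for iCMs over CSCs and -2.36 ± 0.23 (adjusted p = 2.9e-05) for iCMs over aCMs. Kcnq1, the pore of the slow delayed rectifier IKs, was at 5.27, 4.07 and 4.97 CPM in CSCs, 19.6, 18.5 and 15.6 in iCMs and 109 and 86.6 in aCMs, with log2 fold changes of 1.91 ± 0.20 (adjusted p = 4.2e-05) and -2.45 ± 0.21 (adjusted p = 1.7e-05). Both pores rose in graded steps with no overlap between groups. The span of Kcnq1 overlaps that of its antisense transcript, and the sources used here do not give whether counting used strand. Kcne1, the subunit that turns Kcnq1 into the IKs channel, had no count in any CSC library and was at 56.3, 27.8 and 40.5 CPM in iCMs and 23 and 13.9 in aCMs. With 3 counts taken as the floor over the CSC group, it was at least 2323-fold higher in iCMs and at least 946-fold higher in aCMs. All iCM libraries lay above both aCM libraries, but the log2 fold change of 1.18 ± 0.37 (adjusted p = 0.032) missed the 2.5-fold threshold, and it passed it when library totals alone scaled the data, at 1.90, with no filter, at 1.35, and without iCM library 2, at 1.41, or aCM library 1, at 1.62.

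The other KCNE subunits differed in direction between aCMs and CSCs, where Kcne2 was lower and Kcne3 and Kcne4 were higher. Kcne2, known to bind Kcnh2, Kcnq1 and Kv4 pores, was at 0.518, 0.182 and 0.205 CPM in CSCs, 0.835, 0.368 and 0.532 in iCMs and 0 in both aCM libraries. It was called lower in aCMs than in either group, at an adjusted p of 0.016 against iCMs and 0.034 against CSCs. With a floor of 3 counts over the aCM libraries these are differences of at least 3.72-fold and at least 1.88-fold, and both calls were lost when either aCM library was left out, and that against CSCs also without CSC library 1. Kcne2 and Kcne1 lie 47.87 kb apart on chromosome 16. Kcne3 had no count in CSCs, was at 1.72, 1.36 and 1.33 CPM in iCMs and at 0 and 0.766 CPM in aCMs, so that 1 aCM library was level with CSCs. The call of Kcne3 in aCMs over CSCs was lost without aCM library 2. Kcne4, an inhibitory subunit of Kcnq1, was at 0.0334, 0.136 and 0.117 CPM in CSCs, 2.67, 1.77 and 2.66 in iCMs and 0.525 and 3.35 in aCMs. Its aCM libraries lay on either side of the iCM libraries, and its direction against aCMs turned when aCM library 1 was left out. The log2 fold change of Kcne4 in aCMs over CSCs, 4.34, was 2.39 without aCM library 2, and that call was lost.

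Of the 15 inward rectifier (Kcnj) genes, 11 passed the filter. Of these, 10 were higher in iCMs than in CSCs, against 22% of all tested features. Some of the 11, such as Kcnj8, had almost no counts in CSCs and passed the filter only through iCMs and aCMs, which favours calls in this direction. Kcnj2, the main pore of the ventricular inward rectifier IK1, was at 0.0836, 0.0757 and 0.117 CPM in CSCs, 17, 18.1 and 11.5 in iCMs and 87.9 and 85.2 in aCMs, with log2 fold changes of 7.4 ± 0.31 (adjusted p = 9.1e-08) over CSCs and -2.47 ± 0.24 (adjusted p = 2.9e-05) against aCMs. Kcnj12, a partner pore of IK1, was at 0.0334, 0.106 and 0.0584 CPM in CSCs, 5.44, 7.73 and 5.98 in iCMs and 94.6 and 99.1 in aCMs. Both rose from near 0, and the log2 fold change of Kcnj12 against aCMs was -3.92 ± 0.28 (adjusted p = 5.7e-06). Kcnj4, a less abundant IK1 pore known from heart and brain, was at 0, 0.0303 and 0.0292 CPM in CSCs, 0.539, 0.847 and 0.266 in iCMs and 0.919 and 1.05 in aCMs and was called higher than in CSCs in both. Kcnj14 was at 0.451, 0.848 and 0.117 CPM in CSCs, 0.296, 1.14 and 0.797 in iCMs and 3.02 and 4.12 in aCMs. CSCs and iCMs overlapped in Kcnj14, and its deficit against aCMs, -2.28 ± 0.75 (adjusted p = 0.03), was lost without any 1 of 4 libraries, which are iCM libraries 1 and 3 and both aCM libraries, and with library totals as the scale.

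Kcnj3 and Kcnj5 encode the subunits of the acetylcholine-gated channel of atrial and nodal cells. Kcnj3 was at 0.251, 0.318 and 0.117 CPM in CSCs, 17.3, 22.8 and 11.2 in iCMs and 235 and 131 in aCMs, with log2 fold changes of 6.13 ± 0.43 (adjusted p = 2.5e-06) and -3.41 ± 0.36 (adjusted p = 5.3e-05). Kcnj5 had 3 counts in all CSC libraries together and was at 23.3, 29.8 and 27.1 CPM in iCMs and 171 and 137 CPM in aCMs. It was 1402-fold higher in iCMs than in CSCs, with a 95% counting interval of 479 to 6803, and its log2 fold change against aCMs was -2.52 ± 0.26 (adjusted p = 4.6e-05). Kcnj6, a related subunit known mainly from neurons, was at 0.0836, 0 and 0.0292 CPM in CSCs, 2.4, 1.84 and 1.26 in iCMs and 1.05 and 1.92 in aCMs. It rose in both but showed no call between them.

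The pore genes of the ATP-sensitive channel rose in iCMs and were again higher in aCMs, as were the genes of their sulfonylurea receptors. Kcnj11, the pore of the channel in the cardiomyocyte membrane, was at 0.0669, 0.0303 and 0.146 CPM in CSCs, 9.48, 11 and 9.24 in iCMs and 314 and 333 in aCMs. The log2 fold change was 7.06 ± 0.34 (adjusted p = 1.8e-07) for iCMs over CSCs and -5.03 ± 0.26 (adjusted p = 1.7e-06) for iCMs over aCMs. Abcc8, the receptor gene that lies 3.57 kb from Kcnj11 on chromosome 7 and is used in mouse atria, was at 0.0334, 0.0303 and 0.117 CPM in CSCs, 10.4, 8.69 and 6.84 in iCMs and 76.3 and 76.4 in aCMs. The receptor followed the same order of groups, with a log2 fold change against aCMs of -3.13 ± 0.30 (adjusted p = 2.9e-05). Kcnj8, the pore of the vascular form, had 1 count in all CSC libraries together and was at 11.1, 9.13 and 15.3 CPM in iCMs and 36.5 and 61.2 CPM in aCMs. Its level in iCMs was 1793-fold that in CSCs, with a counting interval of 321 to 70903, and its log2 fold change against aCMs was -2.05 ± 0.34 (adjusted p = 8.5e-04). Abcc9, its receptor and also that of the ventricular Kcnj11 channel, lies 16.25 kb from Kcnj8 on chromosome 6 and was at 0.117, 0.242 and 0.117 CPM in CSCs, 61.5, 47.3 and 47.6 in iCMs and 458 and 353 in aCMs. Kcnj8 and Abcc9 are also expressed by pericytes and vascular smooth muscle. Of 5 pericyte markers, a list that holds Abcc9 itself, Rgs5, Cspg4 and Abcc9 were higher in aCMs than in CSCs, whereas Pdgfrb and Notch3 were lower. Rgs5 was at 16.9, 2.18 and 4.09 CPM in CSCs, 195, 154 and 260.3 in iCMs and 931 and 1239.9 in aCMs, and Pdgfrb was at 386, 280.0 and 293 CPM in CSCs, 138, 128 and 145 in iCMs and 43.6 and 83 in aCMs. The 5 summed to 461 to 632, 405 to 531 and 1473 to 1758 CPM. All 5 smooth muscle markers were higher in aCMs than in CSCs, and their sum was 126 to 144, 474 to 874 and 763 to 787 CPM. Between iCMs and aCMs, Myh11 and Smtn were lower in iCMs, Tagln was higher, and Acta2 and Cnn1 were not called. The part of such cells in the level of Kcnj8 was not tested.

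Of the tandem-pore background channels (K2P), Kcnk3 was the gene called lower in iCMs than in aCMs. Kcnk3 encodes an acid-sensitive background channel of cardiomyocytes and vascular smooth muscle. It was at 0.752, 0.47 and 0.701 CPM in CSCs, 18.4, 18.4 and 17.5 in iCMs and 563 and 642 in aCMs, with log2 fold changes of 4.83 ± 0.22 (adjusted p = 1.4e-07) and -5.05 ± 0.22 (adjusted p = 7.3e-07). Replicates of Kcnk3 lay close together in each group. Kcnk2, a stretch-sensitive channel, was at 2.74, 2.59 and 3.42 CPM in CSCs, 4.04, 4.49 and 5.58 in iCMs and 4.6 and 3.64 in aCMs and was called in no comparison. Kcnk6 was at 1.84, 1.83 and 2.19 CPM in CSCs, 6.33, 8.24 and 4.65 in iCMs and 4.73 and 5.65 in aCMs and was higher than in CSCs in both, although the call for aCMs was lost without aCM library 2, without a filter, with library totals and with the replicate block. Kcnk1 was at 0.0334, 0 and 0 CPM in CSCs, 1.13, 0.589 and 0.465 in iCMs and 0.263 and 0.958 in aCMs, with iCMs and aCMs overlapping. Kcnk5, known from epithelia, was at 0.0334, 0 and 0.0877 CPM in CSCs, 2.48, 6.55 and 2.53 in iCMs and 0.657 and 0.862 in aCMs and was higher in iCMs than in either group, a call against aCMs that was lost without iCM library 2 or either aCM library.

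The calcium-activated channels were split. Kcnn2, a small conductance channel of atrial and ventricular muscle, was at 0.0167, 0.0303 and 0.0584 CPM in CSCs, 3.82, 5.56 and 3.79 in iCMs and 36.9 and 24.9 in aCMs, with log2 fold changes of 6.95 ± 0.46 (adjusted p = 1.5e-06) and -2.81 ± 0.34 (adjusted p = 1.2e-04). Kcnn4, the intermediate conductance channel known from blood cells, fibroblasts and dividing cells, was at 8.04, 16.2 and 11.8 CPM in CSCs, 7.49, 9.09 and 6.11 in iCMs and 0.263 and 0.192 in aCMs. CSCs and iCMs overlapped in Kcnn4, and it was higher in iCMs than in aCMs by 5.06 ± 0.55 (adjusted p = 6.3e-05) on the log2 scale. Kcnn1 was at 22.1, 4.68 and 12.6 CPM in CSCs, 9.45, 7.58 and 10.3 in iCMs and 41 and 39.2 in aCMs, so that its CSC libraries spread around those of iCMs and both lay below aCMs. The call of Kcnn1 between aCMs and CSCs was lost without CSC library 2 or either aCM library and with library totals. Kcnn3 was at 0, 0.0757 and 0.0584 CPM in CSCs, 0.862, 0.515 and 0.266 in iCMs and 0.131 and 0.383 in aCMs, and its call over CSCs was lost without iCM library 1 or 2.

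Large conductance (BK) channel genes were low in every group. Kcnma1, their pore, was at 0.284, 0.333 and 0.292 CPM in CSCs, 0.485, 0.405 and 0.399 in iCMs and 0.525 and 1.15 in aCMs. Its call between aCMs and CSCs, 1.48 ± 0.57 (adjusted p = 0.047), was lost in 7 of the 8 fits that left out a library, all but the fit without aCM library 1, and came to 0.73 without aCM library 2. It was also lost with DESeq2, library totals, no filter, only the groups compared and the replicate block. Kcnmb1, the BK subunit of smooth muscle, was at 0.1, 0.121 and 0.117 CPM in CSCs, 0.808, 0.589 and 0.532 in iCMs and 1.84 and 3.54 in aCMs, and its deficit in iCMs against aCMs was lost without aCM library 2. The smooth muscle markers given above were split between iCMs and aCMs, and their part was not tested. Kcnmb4, the BK subunit known from neurons, was at 0.284, 0.121 and 0.351 CPM in CSCs, 2.75, 2.36 and 3.06 in iCMs and 0.263 and 0.192 in aCMs. It was higher in iCMs than in CSCs by 3.45 ± 0.48 (adjusted p = 3.0e-04) and than in aCMs by 3.58 ± 0.68 (adjusted p = 0.0019). Kcnmb2 was at 0.0669, 0.0303 and 0.175 CPM in CSCs, 0.539, 0.478 and 0.465 in iCMs and 0.394 and 0.575 in aCMs.

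**Figure D4:**
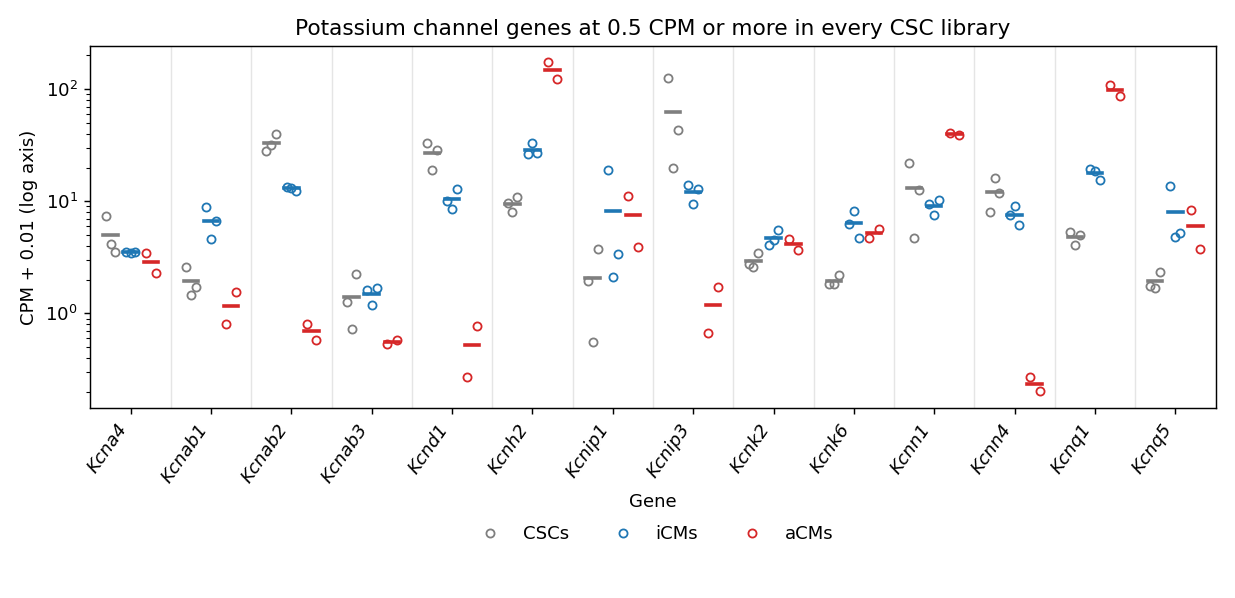
Level of the 14 potassium channel genes with 0.5 CPM or more in every CSC library, as CPM + 0.01 on a log axis, with circles for single libraries and bars for the mean of CSCs (grey, n = 3), iCMs (blue, n = 3) and aCMs (red, n = 2). Kcnab2, Kcnd1 and Kcnip3 step down, Kcnh2 and Kcnq1 step up, and Kcnn4 drops in aCMs while iCMs overlap with CSCs.

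Of the 14 genes detected in CSCs, 4 were lower in aCMs than in CSCs, namely Kcnab2, Kcnd1, Kcnip3 and Kcnn4. Another 5, namely Kcnh2, Kcnk6, Kcnn1, Kcnq1 and Kcnq5, were higher in aCMs, and 5 were not called. Over all tested features 20.4% were lower and 24.2% higher. The 14 genes were chosen by their level in CSCs, so these counts do not describe the whole family. The remaining gene of the family called lower in aCMs than in CSCs was Kcne2, which did not reach 0.5 CPM in every CSC library. Kcnab2, a Kvβ subunit of Kv1 channels, was at 28.2, 32 and 39.9 CPM in CSCs, 13.5, 13.1 and 12.4 in iCMs and 0.788 and 0.575 in aCMs. The groups of Kcnab2 did not overlap, and the fall was -1.36 ± 0.21 (adjusted p = 5.7e-04) in iCMs and -5.63 ± 0.34 (adjusted p = 5.1e-07) in aCMs. The former lies at the 2.5-fold threshold and was lost with other scalings, with DESeq2, with the replicate block, with a stricter filter, in a fit of only these groups and without CSC library 3 or iCM library 3. Kcnab1, the related Kvβ gene, was at 2.59, 1.45 and 1.72 CPM in CSCs, 8.81, 4.6 and 6.71 in iCMs and 0.788 and 1.53 in aCMs and was therefore highest in iCMs, by 1.8 ± 0.40 (adjusted p = 0.0044) over CSCs and 2.5 ± 0.52 (adjusted p = 0.0029) over aCMs, the latter 3.11 without aCM library 2. Kcnab3 was not called. Kcnq5, a Kv7 pore of neurons and vascular muscle, was at 1.76, 1.67 and 2.34 CPM in CSCs, 13.8, 4.82 and 5.18 in iCMs and 8.41 and 3.74 in aCMs, with iCMs above CSCs by 2.06 ± 0.49 (adjusted p = 0.0065), and by 1.40 without iCM library 1. Of 5 fibroblast markers, Col1a1, Col3a1 and Pdgfra were lower in aCMs than in CSCs, whereas Dcn and Lum were higher. Col1a1 was at 4406, 3176 and 4604 CPM in CSCs, 914, 1083 and 888 in iCMs and 29.7 and 68.7 in aCMs, and Dcn was at 84.7, 20.2 and 68 CPM in CSCs, 361, 304 and 398 in iCMs and 184 and 242 in aCMs. The 5 fibroblast markers summed to 6077 to 13118, 2811 to 2873 and 299 to 495 CPM in the 3 groups, mostly Col1a1 and Col3a1 in CSCs and iCMs, and their part in the falls of Kcnip3, Kcnd1 and Kcnab2 was not tested.

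Kcnc2 and Kcnj16 were higher in iCMs than in either other group. Kcnc2, a fast-gating Kv pore known from neurons, was at 0.201, 0.0909 and 0.0292 CPM in CSCs, 7.46, 6.7 and 8.77 in iCMs and 0.919 and 0.287 in aCMs, with log2 fold changes of 6.02 ± 0.61 (adjusted p = 3.3e-05) over CSCs and 3.72 ± 0.69 (adjusted p = 0.0016) over aCMs. Without CSC library 1 the former was 6.75, and the latter was 4.75 without aCM library 1 and 3.08 without aCM library 2. Kcnj16, known from epithelia and glia and the neighbour of Kcnj2 at 38.2 kb, was at 1.1, 0.803 and 0.321 CPM in CSCs, 3.23, 2.32 and 2.26 in iCMs and 0.263 and 0.383 in aCMs. Adjacent Kcnj2 and Kcnj16 therefore had opposite orders of iCMs and aCMs. Kcnh3, known from the forebrain, was at 0.552, 0.151 and 0.292 CPM in CSCs, 0.969, 1.1 and 0.332 in iCMs and 0 and 0.0958 in aCMs, and was not called against CSCs, with which iCMs overlapped. Its call against aCMs was lost without iCM library 1 or 2 or either aCM library. The 7 neuronal and glial markers summed to 2.21 to 5.00 CPM in CSCs, 8.19 to 12.3 in iCMs and 7.75 to 11.8 in aCMs, and Snap25 was at 0.404 CPM or less in every library. The 4 mesothelial markers summed to 173 to 210 CPM, 252 to 485 CPM and 7.22 to 7.57 CPM. In CSCs this was mostly Msln, at 208, 171 and 187 CPM, which was not called between iCMs and CSCs. Krt18, Krt19 and Upk3b were higher in iCMs than in CSCs. The 5 leukocyte markers summed to 4.23 to 9.96, 63.7 to 97.5 and 31.9 to 57.2 CPM. The part of such cells in these levels was not tested.

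**Figure D5:**
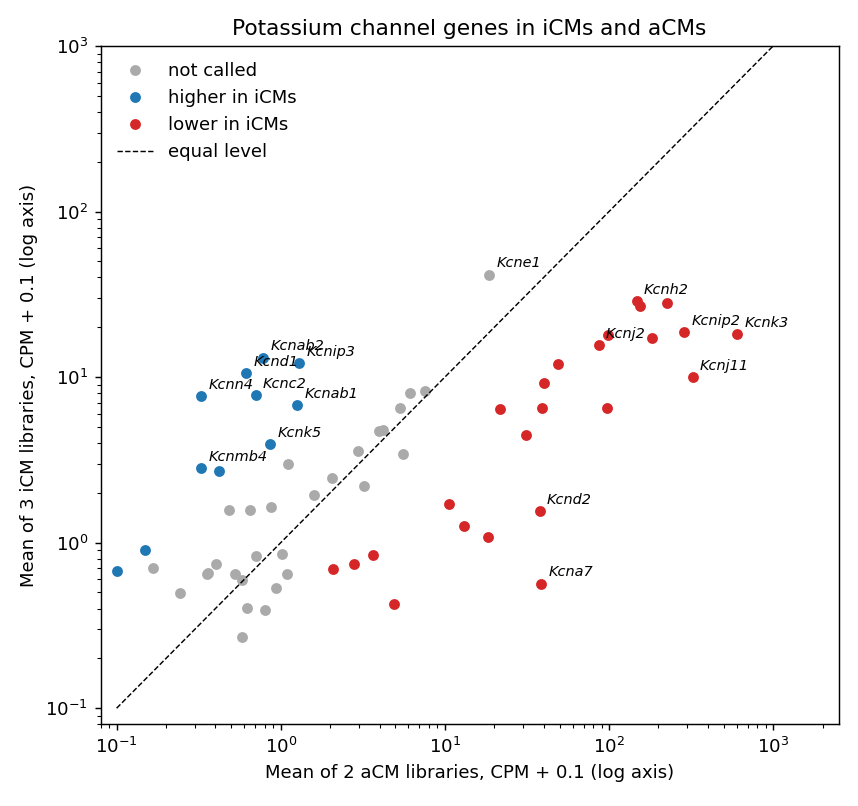
Mean level of the 64 tested potassium channel genes in iCMs (3 libraries, vertical) against aCMs (2 libraries, horizontal), as CPM + 0.1 on log axes, with the dashed line at equal level. The 24 genes called lower in iCMs (red) lie below the line, from Kcna7 to Kcnk3, and the 11 called higher (blue) lie above it.

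The remaining Kv genes were mostly low. Kcnc1 was at 0.301, 0.0909 and 0.351 CPM in CSCs, 3.61, 0.258 and 10.1 in iCMs and 5.38 and 2.3 in aCMs. The iCM libraries of Kcnc1 spread widely, and iCM library 2 overlapped with CSCs. Kcnh7, a relative of Kcnh2, was at 0.568, 0.485 and 0.321 CPM in CSCs, 2.8, 4.31 and 2.92 in iCMs and 4.99 and 5.94 in aCMs. The sodium-activated channels Kcnt1 and Kcnt2 were at 1.43, 1.36 and 1.86 and at 2.4, 2.91 and 3.39 CPM in iCMs, against 0.468 CPM or less in CSCs, and both were called higher in iCMs than in CSCs and not against aCMs. Kcnt2 was called higher in iCMs than in aCMs with library totals, at 2.23, in a fit of only the groups compared and without CSC library 3, at 1.52. Kcna6, Kcnh1, Kcnj15 and Kcnc4 were also higher in both than in CSCs, and Kcnk13 was called higher in iCMs than in CSCs. Of these, Kcna6 lost its call in aCMs without CSC library 2 or 3 or aCM library 2, Kcnh1 without aCM library 1, Kcnc4 without iCM library 1 and Kcnk13 in iCMs without iCM library 2 or 3. Kcna4, Kcnab3, Kcng4, Kcnh5, Kcnh6, Kcnip1, Kcnk2 and Kcnk7 were called in no comparison.

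The 32 genes of 10 cardiac current lists were set beside the other 32 tested genes. The lists were chosen with earlier results of these data known, so the contrast is a description and not a test. Of the listed genes, 24 were higher in iCMs than in CSCs and the other 8 were not called, 3 were higher and 20 lower in iCMs than in aCMs, and 26 higher and 2 lower in aCMs than in CSCs. Of the other genes, 20 were higher and 3 lower, 8 higher and 4 lower, and 18 higher and 3 lower in the same comparisons. Over all tested features, 22% were higher and 7.16% lower, 19.6% higher and 15.3% lower, and 24.2% higher and 20.4% lower. The median log2 fold change of iCMs against aCMs was -2.09 for the listed and 0.68 for the other genes. By current, lower levels in iCMs than in aCMs were called in 3 of 4 transient outward, 3 of 4 inward rectifier, 2 of 2 acetylcholine-gated, 2 of 2 ATP-sensitive and 2 of 4 small conductance genes. They were called in 1 of 2 rapid delayed and 1 of 2 slow delayed rectifier genes and in 1 of 4 tandem-pore and 1 of 4 large conductance genes. In the list of ultra-rapid and slow Kv genes they were called in Kcna1, Kcna5 and Kcna7.

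Across the 64 tested genes, libraries of a group ranked the genes alike. These genes share library and gene length and are not replicates. Spearman's rho over them was 0.82 to 0.88 between CSC libraries, 0.89 to 0.92 between iCM libraries and 0.93 between aCM libraries. Between groups it was 0.24 to 0.35 for CSCs with iCMs, 0.54 to 0.59 for iCMs with aCMs and -0.03 to 0.13 for CSCs with aCMs. Many of these genes passed the filter only because they are high in iCMs or aCMs, so the values between groups hold for this selection.

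Partner genes outside the family were taken from a list of 19, of which 18 were matched and 14 tested. Of these, 7 were higher in iCMs than in CSCs, 5 were lower in iCMs than in aCMs, and 9 were higher in aCMs than in CSCs, against 22%, 15.3% and 24.2% of all tested features. Klf15, a transcription factor that controls Kcnip2 in mouse heart, was at 0.234, 1.27 and 0.263 CPM in CSCs, 29.1, 26.7 and 24.2 in iCMs and 101 and 72.4 in aCMs. Its steps ran in the order of those of Kcnip2 given above. Irx3, a transcription factor of the conduction system, was at 0.0669, 0.0757 and 0.0877 CPM in CSCs, 17.8, 23.3 and 18.6 in iCMs and 39.9 and 46.7 in aCMs. Hey2, a transcriptional repressor of the ventricular compact layer, was at 0.0167, 0.0303 and 0.0292 CPM in CSCs, 11.8, 16.5 and 11.4 in iCMs and 6.83 and 7.09 in aCMs. Irx3 and Hey2 rose over CSCs and neither was called between iCMs and aCMs. Irx5, which represses Kcnd2 in the mouse ventricle, was at 8.53, 7.13 and 7.19 CPM in CSCs, 14.2, 14.9 and 16.4 in iCMs and 10.5 and 17.8 in aCMs and was not called. Amigo1, an accessory subunit of Kv channels, was at 8.96, 9 and 10.1 CPM in CSCs, 8, 5.71 and 7.71 in iCMs and 50.8 and 61.3 in aCMs, with a log2 fold change of -2.97 ± 0.23 (adjusted p = 9.7e-06) for iCMs against aCMs. Lrrc52, an accessory subunit of BK-type channels, was at 0, 0.0303 and 0 CPM in CSCs, 0.108, 0.11 and 0.133 in iCMs and 13.7 and 5.84 in aCMs. Cav3, the caveolin of muscle that scaffolds several of these channels, had no count in CSCs and was at 51, 72.2 and 63.3 CPM in iCMs and 138 and 148 in aCMs. The scaffold genes Akap9 and Dlg1 were detected in all groups and passed the fold threshold in no comparison.

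The 28 genes below the filter complete the family. None exceeded 0.997 CPM in a library, the value of Kcns3 in iCM library 3, and none had more than 62 counts over the 8 libraries. Kcnk16 had no count at all. They include Kcna2, Kcna3, Kcna10, Kcnb2, Kcnip4, Kcnk9 and most silent subunit genes, many of which are known from neurons. At these depths 3 counts correspond to between 0.0454 CPM in CSC library 2 and 0.394 CPM in aCM library 1, so lower levels could not be seen, and the limits cover counting error only.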

How the data were processed

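Total RNA was sequenced in 3 CSC, 3 iCM and 2 aCM libraries, 100 bp pairs after removal of ribosomal RNA, aligned by the authors in Strand NGS with Ensembl genes, mm10 in the sample records. The authors deposited estimated counts per gene, not divided by length or depth, although the table's title also names RPKM. Of these values 51.4% were not whole and were rounded. The small RNA table was not used here. Depth per library is given with the results, and precision as approximate standard errors or counting intervals.

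Analyses used R 4.3.3 and edgeR 4.0.16: filterByExpr, which left 20254 features, TMM scaling, and the quasi-likelihood F-test on all 8 libraries, with p-values adjusted by Benjamini and Hochberg over all tested features. Genes were called where the adjusted p was under 0.05 and the level changed 2.5-fold or more. The fold threshold is that of the study, which used DESeq, and the threshold on the adjusted p was set here. Levels are CPM on TMM-scaled libraries. Where a group has 0 counts a fold is a lower bound with 3 counts over that group, and with 1 to 3 counts it has a 95% counting interval. Only the edgeR fit and the rule for calls were tested on simulated counts, for iCMs against CSCs. P-values measure only the spread among these libraries. Gene lengths were not at hand, so levels were not compared between genes. Of the 92 genes, 41 overlap another RefSeq gene, 30 of them tested, and strand use in counting is not given in the sources used here, so these levels may hold reads of the other gene.

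The genes, the current, partner and marker lists and the tests were chosen with earlier results of these data known. Named genes are, per comparison, up to 6 called genes that rose most and up to 6 that fell most, where their mean log2 CPM was 0 or more, all tested genes of the current lists, the 2 genes of each subfamily with the highest mean log2 CPM, genes called against the rest of their subfamily, and called partner genes. By this rule 47 genes of the family were chosen, of which some are not reported here, and others were named after their values were seen. Genes count as detected at 0.5 CPM in every library of a group. Promoter windows came from RefSeq on GRCm38.p6. The fits were repeated with DESeq2 1.42.0, with edgeR scaled by DESeq2 size factors or by library totals, without a filter, with a filter of 1 CPM in at least 2 libraries, with only the groups compared, with a replicate block, without each library in turn, and with the adjusted p or the fold alone. Replicate numbers were not taken to pair CSC and iCM libraries, since the study describes no shared batch of same-numbered samples. Correlations of the deviations from group means were 0.0336, 0.155 and 0.0709 for same-numbered libraries. They were -0.115 to 0.0665 for differently numbered ones. These values do not settle whether the libraries are paired.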

Additional observations from a re-analysis of the deposited data

How the results depend on the processing

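Of 2061 values of single genes under the alternatives, 1944 kept their direction and side of the threshold, 88 lost a call, 14 gained one and 15 turned. The 3 genes lower in iCMs than in CSCs became 1 with a stricter filter, 1 with only the groups compared and 1 with the replicate block, because Kcnab2 and Kcnd1 lie at the 2.5-fold threshold. The 5 genes lower in aCMs than in CSCs became 9 with library totals only. With single libraries left out, 41 to 46 genes were higher and 2 to 3 lower in iCMs than in CSCs, 8 to 12 higher and 20 to 24 lower in iCMs than in aCMs, and 33 to 43 higher and 4 to 6 lower in aCMs than in CSCs. With the replicate block these counts were 38 and 1, 11 and 24, and 34 and 4. No shared batch is described for same-numbered libraries, and the block is not described as a weaker effect.

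Log2 fold changes turned for genes not called in that comparison, and the cause was not tested. With single libraries left out, that of iCMs over CSCs ran from -0.93 to 0.087 for Kcnn1. That of iCMs over aCMs ran from -0.93 to 1.03 for Kcnc1, which also came to -0.21 without aCM library 2 and to -1.59 with the replicate block, and from -0.47 to 2.19 for Kcne4. It ran from -0.33 to 1.51 for Kcnk1, with -0.26 without iCM library 1, and from -0.18 to 0.36 for Kcnmb2, with -0.06 without iCM library 1. It ran from -0.28 to 1.13 for Kcnq5, with -0.05 without aCM library 2. That of aCMs over CSCs ran from -0.48 to 0.15 for Kcnmb4, with 0.0057 without CSC library 1 and 0.05 without aCM library 2, and came to -0.17 for Kcnk2 with library totals. The shallowest libraries are both aCM libraries and iCM library 3.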
